A study of Homo sapiens with 6 samples.

Results

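The inflammatory cytokine genes IL1A, IL1B, CXCL2 and CXCL3 were followed as nascent RNA in A375 cells, an established human malignant melanoma line. They are 4 of the 12438 gene symbols in the deposited tables, found by symbol, and each had 1 row (RefSeq NM_000575, NM_000576, NM_002089 and NM_002090). The genes were picked with their promoter densities, gene body densities and traveling ratios in view, so these values are given as a description, with no test. Cells received DMSO, the solvent, or 25 µM leflunomide or 25 µM A771726 for 48 h, with 2 GRO-seq libraries per group and 6 in all. GRO-seq labels RNA while engaged polymerases run on in nuclei, so it reads transcription and not the RNA that has built up. A771726 is the active metabolite that forms when the isoxazole ring of leflunomide opens. This metabolite inhibits DHODH, an enzyme of pyrimidine synthesis, and the series title ties this inhibition to HEXIM1, a regulator of transcription elongation, in melanoma. No label says that the 2 libraries of a group came from separate cultures, so their spread may be technical.

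IL1A and IL1B encode interleukin-1 alpha and beta, cytokines that bind the same receptor and activate NF-kB through MYD88, IRAK kinases and TRAF6. CXCL2 and CXCL3 encode chemokines that draw neutrophils through the receptor CXCR2. All 4 are textbook NF-kB targets, and melanoma lines often make interleukin-1 and CXCL chemokines themselves.

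The 4 genes did not move together. CXCL3 had the widest range: its mean gene body density was 0.03855 in DMSO, 0.0777 with leflunomide and 0.00485 with A771726, while its promoter density was 0, 0.0814 and 0.21425 in the same order. CXCL2 also had its lowest gene body density (0.0082) and its highest promoter density (0.09505) with A771726. IL1B had a lower mean gene body density with both compounds (0.0055 and 0.0052, against 0.01665 in DMSO), and IL1A a higher one (0.01265 and 0.00955, against 0.0050). These values rest on few reads, at most about 34 per gene body and group, so the counting error of each is wide.

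All densities are group means that the authors formed over both libraries, and their unit is not named. The traveling ratio divides the promoter density by that of the gene body, and a high ratio means that reads sit near the start of the gene. Values of single libraries were solved from the 3 deposited means of a row, which is possible where a promoter has reads. For 89.3% of such DMSO rows, 93.4% of leflunomide rows and 94.2% of A771726 rows, a single pair of library values came out. A promoter with 1 read has a density of 0.0438 or 0.0520 in DMSO, depending on the library, of 0.0347 or 0.0376 for leflunomide, and of 0.02405 or 0.0313 for A771726. Library totals are not stated. The median gene had a log2 gene body change of −0.06 with leflunomide and −0.52 with A771726 against DMSO, and of −0.47 with A771726 against leflunomide. Of the melanocyte and melanoma markers, 6 of 12 had rows, with summed gene body densities from 0.4174 to 0.5514 per group. SOX10, a defining transcription factor of the lineage, made up most of each sum (0.329 in DMSO, 0.330 with leflunomide and 0.273 with A771726). In the same order, MLANA, a melanosome gene under the filter (0.01515, 0.00485 and 0.0046), was lower with both compounds. So were ERBB3 (0.145, 0.128 and 0.0746) and PAX3 (0.03985, 0.0283 and 0.03295). MITF (0.0123, 0.02255 and 0.01555) and PMEL (0.01035, 0.02235 and 0.01715) were higher with both. Of the macrophage markers, 2 of 6 had rows (CD68 and CSF1R, summed densities from 0.1918 to 0.2424), of the fibroblast markers 1 of 6 (0.0018 to 0.0038) and of the keratinocyte markers 1 of 3 (KRT14, 0.0204 in DMSO, 0.0101 with leflunomide and 0.00385 with A771726). Of the markers of dedifferentiated melanoma, 4 of 5 had rows, with sums of 0.4258, 0.323 and 0.2832. FOSL1 made up most of each sum (0.35545, 0.24075 and 0.21895). NGFR also fell (0.0134, 0.01005 and 0.0069), whereas AXL (0.0544, 0.0675 and 0.0544) and EGFR (0.0026, 0.00475 and 0.00295) were highest with leflunomide. The part of all these markers in the results was not tested. In bulk libraries fewer cells transcribing a gene and less transcription per cell cannot be told apart. CD68 is transcribed in many cell types. The defining immune markers PTPRC and CD14 were searched by symbol and had no row.

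The promoters of the chemokine genes are shown first, because the densities near the starts of CXCL2 and CXCL3 were higher with A771726 than in DMSO. The 120 bases before the RefSeq start are given for CXCL3, CXCL2 and their nearest paralog CXCL1, 5′ to 3′ on the gene's strand, from RefSeq with build GRCh38.p14. Capitals mark a narrow form of the kB motif that NF-kB dimers bind (GGG, any 2 bases, TTTCC). A wide form (GGG, any 5 bases, CC), of which the narrow one is a special case, was searched too.
CXCL3 (chr4:74038690-74038809, minus strand): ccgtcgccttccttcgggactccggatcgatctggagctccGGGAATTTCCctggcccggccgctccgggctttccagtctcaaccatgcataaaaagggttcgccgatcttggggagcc
CXCL2 (chr4:74099196-74099315, minus strand): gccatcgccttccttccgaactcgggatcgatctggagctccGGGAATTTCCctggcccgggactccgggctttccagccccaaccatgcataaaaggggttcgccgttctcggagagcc
CXCL1 (chr4:73869273-73869392, plus strand): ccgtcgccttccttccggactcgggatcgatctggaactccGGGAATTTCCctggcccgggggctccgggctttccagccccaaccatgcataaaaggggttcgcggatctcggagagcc
The narrow kB motif begins 79 bases before the start in CXCL3 and CXCL1, and 78 bases before it in CXCL2, with the same letters, GGGAATTTCC, in all 3. On either strand, 1.91% of the 35116 promoters in the RefSeq table hold this motif in a window of 300 bases around the start. CXCL3 and CXCL1 have the same base at 109 of 120 positions, and CXCL2 and CXCL1 at 81 of 120, with no gaps allowed. CXCL2 and CXCL3 match at 75 of 119 positions when shifted by 1 base. The kB motif of CXCL2 lies 1 base nearer the start, so without gaps part of its stretch stays out of step. The counts with CXCL2 therefore understate its likeness to CXCL1 and CXCL3, and no alignment with gaps was made.

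The authors worked on hg18, and where their promoter windows lie is not stated, so these stretches need not be centred where the densities were taken. Of the 30-base windows in the reference transcripts, 9.94% of those of CXCL3 and 20.5% of those of CXCL2 also occur in the transcripts of the other genes shown here. How the authors treated reads with several matches is not stated, so reads of CXCL1, CXCL2 and CXCL3 may be split between them.

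CXCL3 had no promoter reads in either DMSO library. The leflunomide libraries had promoter densities of 0.0592 and 0.1036 at CXCL3, and the A771726 libraries had 0.2094 and 0.2191. The groups did not overlap, with DMSO lowest and A771726 highest. Not all of these CXCL3 values fall on whole reads. With A771726 they are 8.71 and 7.0 reads. With leflunomide they are 1.71 and 2.76 reads, or 2.99 and 1.57 in the other order, and the order is not fixed. A DMSO count of 0 allows up to 3 reads, a mean density of at most 0.0780, which covers counting error only. Against that floor the CXCL3 promoter was at least 2.75-fold higher with A771726, taking its own reads as exact. The leflunomide mean, from 4.33 to 4.69 reads, lay close to the floor, so no bound is given for it. Between the compounds, at the same dose and time, the CXCL3 promoter mean was 2.63 times higher with A771726. Among 3025 genes with all 6 libraries solved, 8.2% had both A771726 promoter values above both of leflunomide. Both A771726 values lay above both of DMSO in 11.4%, and both leflunomide values in 16.7%. All of these genes had promoter reads in every group, so the shares against DMSO are not a like background for CXCL3. A promoter at 0 in DMSO, as in 42.0% of rows, is passed by any reads in both compound libraries.

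The gene body of CXCL3 went the other way. Its gene body densities were 0.0768 and 0.0786 in the leflunomide libraries and 0.0059 and 0.0038 in the A771726 libraries, which do not overlap. The DMSO libraries sum to 0.0771 but could not be solved apart, since their promoters are at 0. At least 1 DMSO library therefore lay at or below the mean of 0.03855, under both leflunomide values, and at least 1 lay at or above it, over both A771726 values. On the log2 scale the CXCL3 gene body changed by 0.97 with leflunomide, −2.53 with A771726 and −3.50 between the compounds, with a pseudocount of 0.0022 that understates changes of low genes. Relative to the median gene these were 1.03, −2.01 and −3.03. Among all solved genes, 54.3% had both A771726 gene body values below both of leflunomide, against a log2 change of −0.47 for the median gene.

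**Figure D1:**
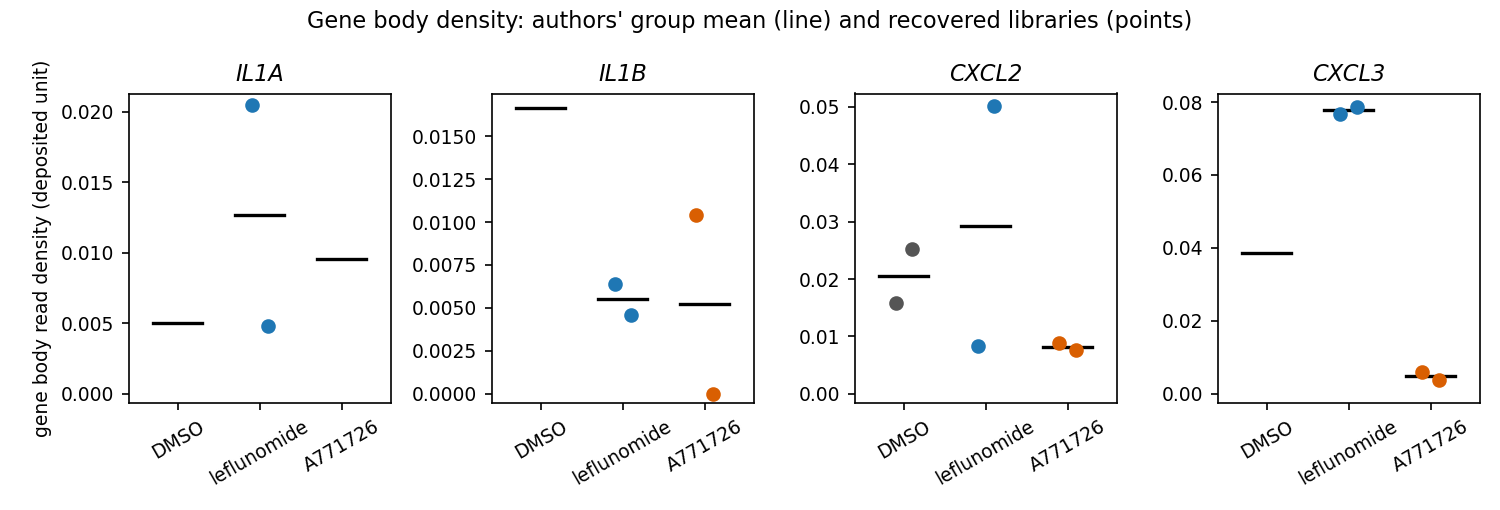
Gene body read density (deposited unit, y axis, own scale per gene) of the 4 genes in DMSO, leflunomide and A771726. Lines are the authors' group means and points the libraries that could be solved. CXCL3 lies at 0.0768 and 0.0786 with leflunomide and at 0.0059 and 0.0038 with A771726, while at IL1A and CXCL2 the 2 leflunomide libraries lie far apart.

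The reads behind these CXCL3 values were estimated. A gene body read was taken as 1 promoter read scaled by 600 over the gene's span plus 2700 bases. For short genes, 91.6% of 908 gene body values then fell on whole reads within 0.05 reads (1.43% after a shift). In the class of longer spans that holds CXCL2 and CXCL3, only 63.5% of 1079 values did (3.43% after a shift). The spans of IL1A (10676 bases) and IL1B (7153 bases) lay beyond both classes, so the scale was not checked at their length. By this scale and the GENCODE 29 span of 2101 bases, the CXCL3 gene body held about 13 reads in DMSO (95% exact Poisson interval 6.92 to 22.2), 34 with leflunomide (23.6 to 47.5) and 3 with A771726 (0.62 to 8.77). Its promoter held 0 reads in DMSO, 4.33 to 4.69 with leflunomide and 13.7 to 17.8 with A771726. The range covers which of the 2 libraries the reads came from, and the Poisson interval covers counting error only. With A771726 most of the estimated CXCL3 reads thus lay at the promoter. With leflunomide most lay in the gene body, whose assumed window is longer, but the densities of promoter and gene body were alike (0.0814 and 0.0777).

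CXCL2 had a promoter density of 0.0438 (1 read) and 0 in the DMSO libraries. With A771726 its promoter lay at 0.0962 (4 reads) and 0.0939 (3 reads), above both DMSO values, as in 11.4% of the solved genes. With leflunomide 2 pairs of values solve the means of CXCL2: 0.0736 and 0, or 0.0320 and 0.0416. Under either pair both A771726 promoter values lay above both of leflunomide, as in 8.2% of the solved genes. The promoter mean was 4.34 times that of DMSO with A771726 (log2 change 1.52) and 1.68 times with leflunomide (0.46), and 2.58 times higher with A771726 than with leflunomide (1.05).

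The CXCL2 gene body lay at 0.0159 and 0.0252 in the DMSO libraries. The A771726 libraries had CXCL2 gene body densities of 0.0088 and 0.0076, both below both DMSO values, as in 54.6% of the solved genes. With leflunomide the CXCL2 gene body was 0.0084 and 0.0502, or 0.0040 and 0.0546 under the other pair, so 1 library was below both DMSO libraries and the other above both. The leflunomide mean of 0.0293 at CXCL2 therefore stands for neither library. The log2 gene body change of CXCL2 was 0.47 with leflunomide, but −1.10 without the higher library (−1.88 under the other pair). With A771726 it was −1.13, and −0.61 relative to the median gene. Between the compounds it was −1.60, but −0.03 without the higher leflunomide library and 0.75 under the other pair. About 7 reads lay behind the CXCL2 gene body in DMSO (95% exact Poisson interval 2.81 to 14.4), 13 with leflunomide (6.92 to 22.2) and 5 with A771726 (1.62 to 11.7).

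**Figure D2:**
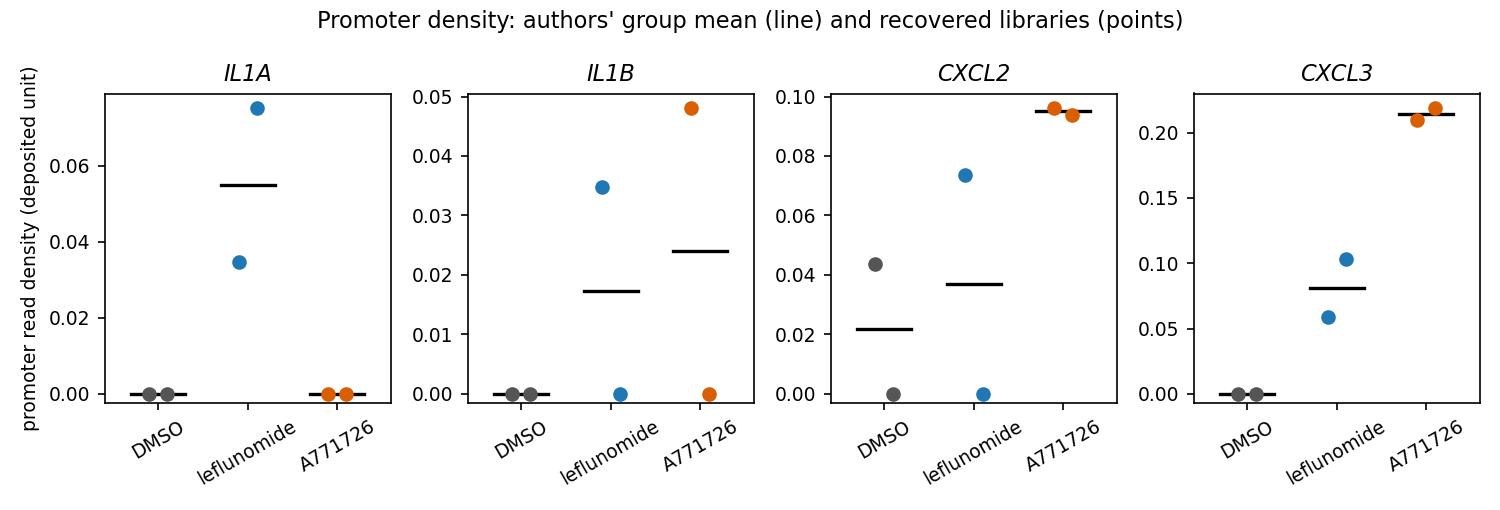
Promoter read density (deposited unit, y axis, own scale per gene) of the 4 genes by group, with the authors' group means as lines and libraries as points. For CXCL2 with leflunomide 1 of 2 possible pairs is drawn. CXCL3 has 0 in both DMSO libraries and 0.2094 and 0.2191 with A771726. Both A771726 values of CXCL2 lie above those of DMSO (as in 11.4% of the solved genes) and of leflunomide (8.2%).

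The traveling ratio put promoter and gene body together. For CXCL2 the deposited mean ratio was 1.38 in DMSO, 4.38 with leflunomide and 11.6 with A771726, a log2 change of 1.67 and 3.08 against DMSO. Library ratios of CXCL2 were 2.75 and 0 for DMSO, against 10.9 and 12.4 for A771726. The CXCL2 value with leflunomide depended on how the mean was formed: the quotient of its mean densities changed by only 0.24 on the log2 scale. For CXCL3 the mean ratio was 0 in DMSO, 1.04 with leflunomide (0.77 and 1.32 in the libraries) and 46.6 with A771726 (35.5 and 57.7), and the deposited folds over DMSO are infinite. CXCL2 was the only 1 of the 4 genes with a ratio above 0 in every group. Of the 5173 genes with such a ratio, 27.9% were at least 2-fold higher with leflunomide, 34.6% with A771726 and 26.9% with A771726 against leflunomide, as CXCL2 was in all 3. No row of the tables has a DMSO ratio above 7.5, so genes with a higher ratio in DMSO are not among the genes compared. The highest ratio was 208.1 with leflunomide and 549.67 with A771726. With a limit in DMSO alone, changes against DMSO may lean towards higher ratios, which was not tested.

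**Figure D3:**
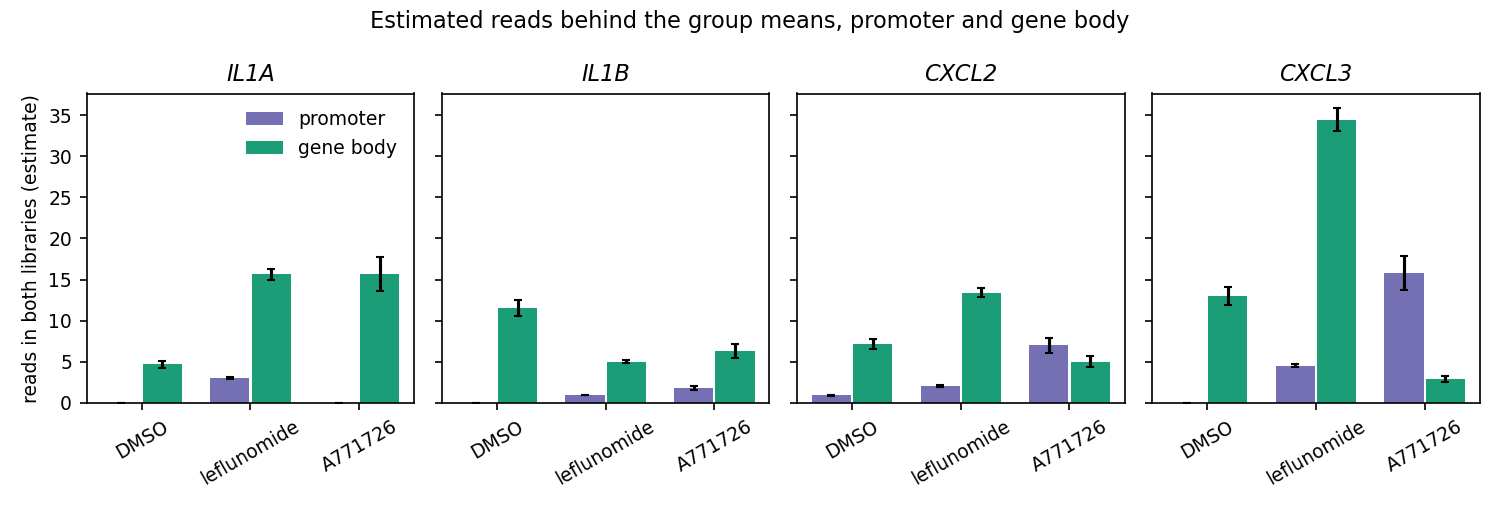
Estimated reads in both libraries of a group (y axis) for the promoter and the gene body of each gene. Bars are the middle of the range, and whiskers span the range over which of the 2 libraries gave the reads. CXCL3 has about 34 gene body reads with leflunomide and about 3 with A771726, where its promoter has 13.7 to 17.8.

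CXCL1, the nearest paralog, also had its highest mean promoter density with A771726, while its gene body values overlapped between groups. Its promoter values were 0.0438 and 0 (DMSO), 0 and 0.0376 (leflunomide), and 0.0481 and 0.1252 (A771726). Both A771726 promoter values of CXCL1 were the highest, by 2 and 4 reads in the libraries against at most 1 read elsewhere. Of the solved genes, 11.4% had both A771726 values above both of DMSO, and 8.2% above both of leflunomide. In limma the CXCL1 promoter change was 1.57 against DMSO (95% interval −1.55 to 4.69, limma adjusted p = 0.994) and 1.65 against leflunomide (−1.48 to 4.77, limma adjusted p = 0.997), so neither passed the test. Its gene body values were 0.0289 and 0.0274 (DMSO), 0.0320 and 0.0198 (leflunomide) and 0.0254 and 0.0289 (A771726), which overlap. The log2 gene body change of CXCL1 in limma was −0.05 with A771726 against DMSO (95% interval −0.86 to 0.76, limma adjusted p = 0.925) and 0.10 against leflunomide (−0.71 to 0.90, limma adjusted p = 0.866). None of the 4 genes had all 6 libraries solved, so none was in that fit.

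The interleukin-1 genes differ from the chemokine genes in promoter sequence. The stretch before the downstream of 2 listed IL1A starts and that before the IL1B start are shown, with capitals for TGANTCA, the motif of AP-1 (FOS and JUN dimers). They are from the same RefSeq table and build.
IL1A (chr2:112784401-112784520, minus strand): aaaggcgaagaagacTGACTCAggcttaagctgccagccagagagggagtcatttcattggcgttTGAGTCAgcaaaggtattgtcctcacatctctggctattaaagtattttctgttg
IL1B (chr2:112836780-112836899, minus strand): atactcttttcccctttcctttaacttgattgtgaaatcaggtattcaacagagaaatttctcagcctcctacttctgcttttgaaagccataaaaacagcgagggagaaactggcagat
The AP-1 motif begins 105 and 55 bases before this IL1A start, and 7.71% of all promoters in the table hold it on either strand. In the 300 bases around the IL1A and IL1B starts, neither the wide nor the narrow kB form was found on either strand. The wide form occurs in 58.7% of all promoters, and the IL1B stretch held none of the 5 motifs searched. The others were the cyclic AMP response element TGACGTCA, found in 1.85% of promoters, and the TATA box (TATAAA), found in 11.5%. Among these promoters the exact letters TATAAA were found once, 239 bases before the upstream IL1A start. The stretches shown for IL1B, CXCL1, CXCL2 and CXCL3 hold CATAAA, which differs only in its first letter. That form was not searched, so the lack of a match does not show that these promoters lack a TATA box.

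**Figure D4:**
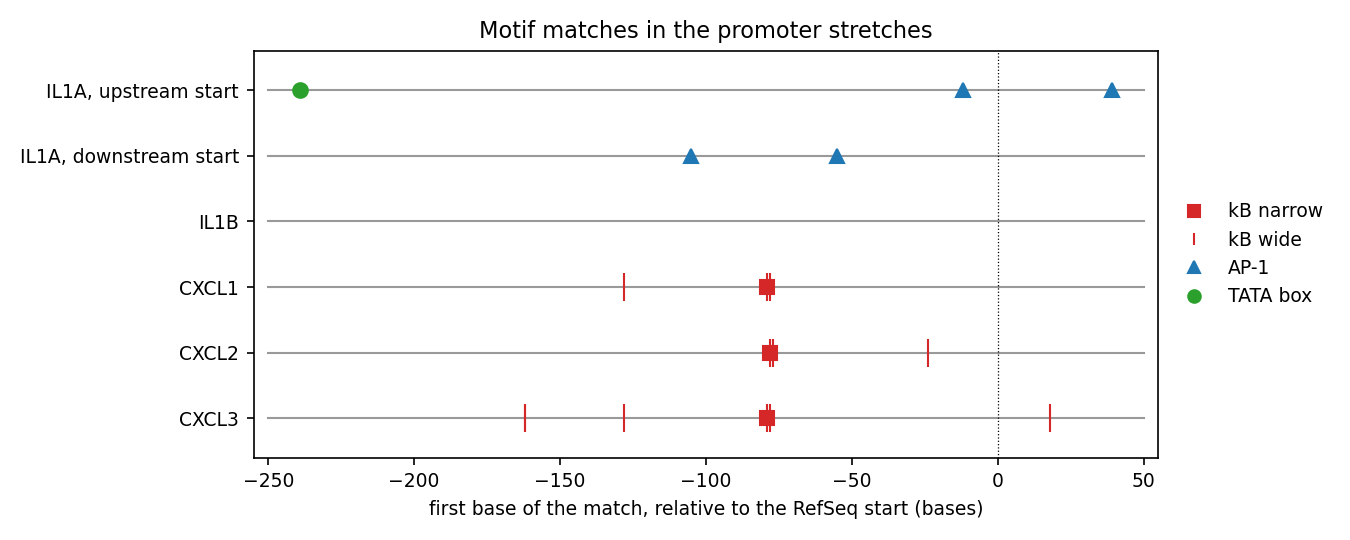
Motif matches along the promoter stretches of the 4 genes and CXCL1 (x axis, bases from the RefSeq start, dotted line), by motif. The 3 chemokine genes share a narrow kB match 79 or 78 bases before the start, IL1A has AP-1 matches, and IL1B has no match to any motif searched.

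IL1A had the lowest DMSO gene body density of the 4 genes. This mean was 0.0050, about 5 reads in both libraries (95% exact Poisson interval 1.62 to 11.7). The leflunomide libraries had 0.0205 and 0.0048 at IL1A, so they lay far apart, and the lower was under the DMSO mean. The log2 gene body change of IL1A with leflunomide was 1.04, but −0.041 without the higher library. With A771726 the mean at IL1A was 0.00955, a log2 change of 0.71, and its libraries could not be solved. Because most genes were lower with A771726, the change of IL1A relative to the median gene was 1.23. About 16 reads lay behind IL1A with each compound (9.15 to 26.0). Between the compounds the log2 change was −0.34, but 0.14 relative to the median gene and 0.75 without the higher leflunomide library, so no direction between the compounds can be read at IL1A.

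The IL1A promoter had reads with leflunomide alone. Its libraries had 0.0347 (1 read) and 0.0752 (2 reads), and both DMSO and A771726 were at 0. The leflunomide mean of 0.05495 at the IL1A promoter is under the 0.0780 that 3 reads in DMSO would give, so the difference was not detectable at this depth. The mean traveling ratio of IL1A with leflunomide was 8.68, from 1.69 and 15.7 in the libraries.

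IL1B was the gene with the lower gene body under both compounds. Its mean gene body density was 0.01665 in DMSO, 0.0064 and 0.0046 in the leflunomide libraries, and 0.0104 and 0 in the A771726 libraries. The DMSO libraries sum to 0.0333 at IL1B, so at least 1 of them lay at or above 0.01665 and over all 4 libraries with a compound. The log2 gene body change of IL1B was −1.29 with leflunomide and −1.35 with A771726, and −1.23 and −0.83 relative to the median gene. The A771726 values of IL1B are an inference: the mean ratio of this row is missing, which is read here as a library with neither promoter nor gene body reads. On that reading the A771726 change was −3.10 without the library that held the reads and −0.58 without the other. Between the compounds the log2 change of IL1B was −0.06, but 0.42 relative to the median gene and between −1.81 and 0.71 when 1 library was left out, so no direction between the compounds can be read at IL1B either. About 12 reads lay behind the IL1B gene body in DMSO (95% exact Poisson interval 6.20 to 21.0) and 5 with leflunomide (1.62 to 11.7). With A771726 the estimate is 7.1 reads if all came from that 1 library. The IL1B promoter held 0 reads in DMSO, 1 with leflunomide and 2 with A771726, all under the limit that a count of 0 allows.

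The filter on low gene bodies is a mean of at least 0.00872 over the groups. IL1A passed it only through the compound groups and IL1B only through DMSO, so the changes of both helped to let them in, and their counts support nothing. As counts, 1 of the 4 genes was at least 2-fold higher in mean gene body density with leflunomide (IL1A, against 1.84% of 8706 genes) and 1 lower (IL1B, against 4.49%). CXCL3, with a log2 change of 0.97 and means 2.02 times apart, fell just short of it on the scale with the pseudocount. With A771726 none was at least 2-fold higher (0.839% of genes) and 3 were lower (IL1B, CXCL2 and CXCL3, against 18.5%). Relative to the median gene this count turned: IL1A was higher (1.23), and of the lower genes CXCL3 alone stayed past 2-fold (−2.01, against −0.83 for IL1B and −0.61 for CXCL2). Of all 8706 genes, 313 were then higher and 499 lower. Between the compounds none was higher with A771726 (1.03%), and CXCL2 and CXCL3 were lower (12.4%). The promoter filter is a mean of at least 0.00627 over the groups. IL1A passed it only through leflunomide, and IL1B and CXCL3 only through the compound groups. Their promoter changes thus helped to let them in. At the promoter, IL1A, IL1B and CXCL3 were at least 2-fold higher with leflunomide (30.6% of 8838 genes were). With A771726 the higher ones were IL1B, CXCL2 and CXCL3 (20.8%). Between the compounds CXCL2 and CXCL3 were higher with A771726 (13.5%) and IL1A lower (30.6%). These promoter counts use the pseudocount where a group is at 0, and those of IL1A and IL1B rest on 1 to 3 reads. With leflunomide the IL1B promoter sat exactly at the threshold (log2 change 1.0), by 1 read whose mean density, 0.01735, equals the pseudocount. Where a promoter is at 0 in DMSO, 1 leflunomide read is thus enough to reach the threshold, whereas 1 A771726 read is not. CXCL2, CXCL3 and IL1B combined a promoter at least 2-fold higher with a gene body at least 2-fold lower with A771726, as did 2.61% of the 7548 genes past both filters, the IL1B promoter by 2 reads. Relative to the median gene the gene bodies of IL1B and CXCL2 fell short of 2-fold, as above. With a pseudocount 5 times larger they did so too (−0.77 and −0.72), as did the CXCL2 promoter (0.74), while the CXCL3 gene body was at −1.64. IL1B combined these changes with leflunomide too (0.888% of genes), with its promoter at the threshold by 1 read. Between the compounds CXCL2 and CXCL3 combined them (1.39%). These shares describe genes that were chosen on the same values, and all comparisons with DMSO use the same DMSO libraries.

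**Figure D5:**
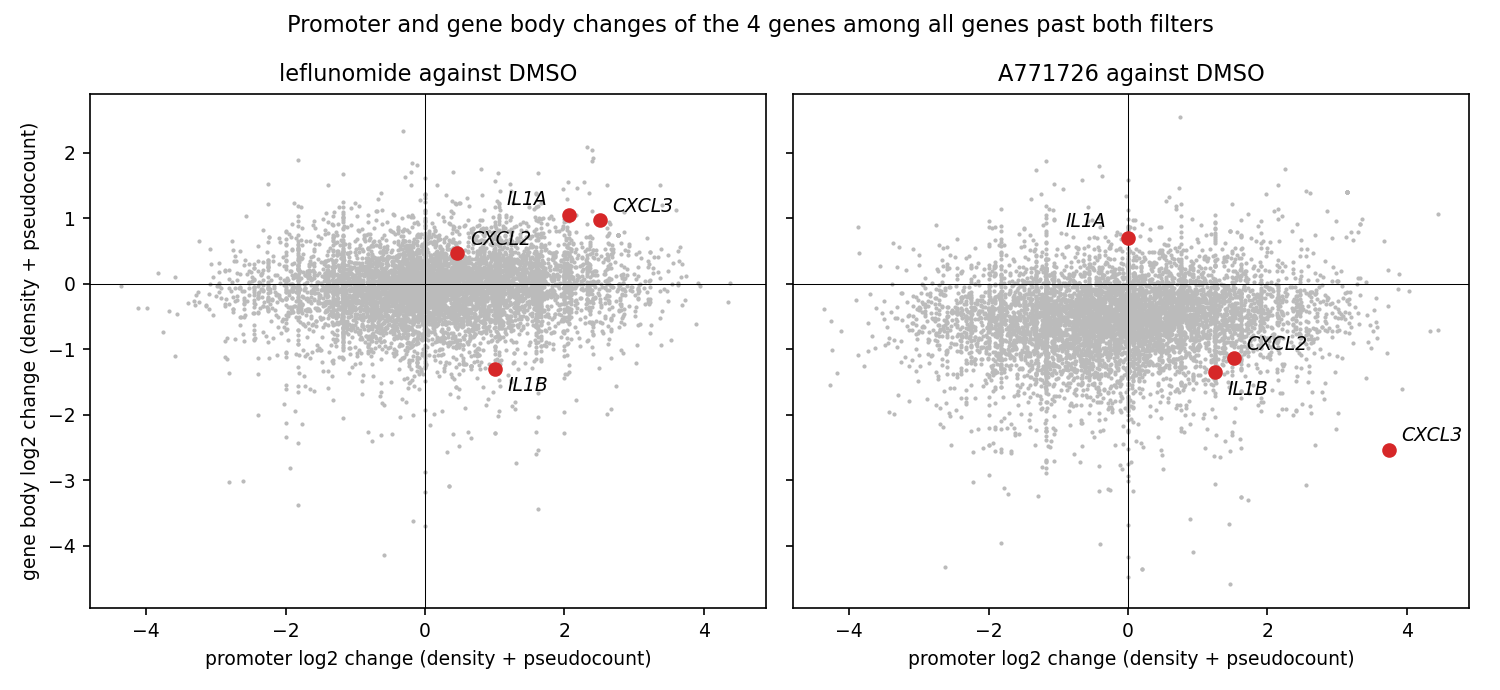
Log2 change of the promoter (x axis) against that of the gene body (y axis), each of density plus pseudocount, for 7548 genes (grey) with the 4 genes in red, for each compound against DMSO. CXCL3 lies high at the promoter with both compounds, at a gene body change of 0.97 with leflunomide and −2.53 with A771726. The x values of CXCL3, IL1A and IL1B depend on the pseudocount where a group is at 0.

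Other genes of the pathway were taken from lists by role. Of the interleukin-1 family ligands 3 of 16 symbols had rows. The third, IL37, an anti-inflammatory member, had gene body densities of 0.03395 (DMSO), 0.0221 (leflunomide) and 0.0217 (A771726), with promoters at 0 in DMSO and leflunomide. The receptor gene IL1R1, the antagonist IL1RN and CXCR2 were searched by symbol and had no row. Of 12 interleukin-1 receptor and signalling genes past the filter, none was at least 2-fold changed with leflunomide (list median 0.04), and 2 were lower with A771726, where 18.5% of all genes were (list median −0.56, against −0.52 for all genes). These were SIGIRR, an inhibitory receptor (0.01435 in DMSO, 0.0119 with leflunomide and 0.00475 with A771726), and PYCARD, the inflammasome adaptor (0.07145, 0.0589 and 0.0302). CASP4, an inflammatory caspase, was lower with A771726 than with leflunomide (0.0075 against 0.02095, 0.0144 in DMSO), as was SIGIRR. IL1RAP, the shared co-receptor, was under the filter (0.0044, 0.0078 and 0.00445).

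Of the CXC chemokines 4 of 6 measured genes passed the filter: CXCL1, CXCL2, CXCL3 and CXCL16. CXCL16, a chemokine made as a membrane protein, had a gene body density of 0.03285, 0.0592 and 0.0346 in DMSO, leflunomide and A771726. Without CXCL2 and CXCL3 the list median was 0.35 with leflunomide and 0.01 with A771726, over 2 genes. IL8, which encodes the chemokine CXCL8, was under the filter in all groups (at most 0.00485). Of the CXC receptors CXCR5 and CXCR6 passed, and neither was at least 2-fold changed.

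Of 16 NF-kB factors and feedback inhibitors past the filter, 1 was at least 2-fold higher with leflunomide (1.84% of all genes were) and 2 lower with A771726 (18.5%), with list medians of −0.17 and −0.59 against −0.06 and −0.52 for all genes. The higher one was NFKBIA, which encodes the inhibitor that holds NF-kB in the cytoplasm, with gene body densities of 0.0145 (DMSO), 0.0454 (leflunomide) and 0.0243 (A771726) and promoters of 0, 0.162 and 0.146. TNFAIP3, a deubiquitinase that limits NF-kB signalling, had a log2 gene body change of 0.99 with leflunomide in limma (95% interval 0.10 to 1.89, limma adjusted p = 0.999), and both leflunomide libraries (0.0448 and 0.0364) lay above both of DMSO (0.0156 and 0.0235), as in 13.7% of the solved genes. The mean promoter density of TNFAIP3 was 0.0999 in DMSO and 0.05495 with leflunomide. The lower ones with A771726 were NFKBIZ, a nuclear co-regulator (0.0882 in DMSO, 0.0786 with leflunomide, 0.03825 with A771726), and TNIP2, a partner of TNFAIP3 (0.0426, 0.0247 and 0.0081). TNIP2 was also at least 2-fold lower with A771726 than with leflunomide.

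Of 8 other inflammatory NF-kB targets past the filter, none was at least 2-fold higher with either compound, 1 was lower with leflunomide (4.49% of all genes were) and 3 with A771726 (18.5%). The list medians were −0.06 and −0.59, against −0.06 and −0.52 for all genes. CSF2, which encodes the growth factor GM-CSF, was lower with both (0.0328 in DMSO, 0.0147 and 0.0057). The chemokine gene CCL20 (0.07895, 0.05725 and 0.03305) and the transcription factor gene IRF1 (0.0165, 0.01265 and 0.0054) were lower with A771726. LIF, a cytokine of the interleukin-6 family, was lower with A771726 than with leflunomide (0.0575 against 0.1246, and 0.09875 in DMSO), as was CSF2. IER3, an immediate early gene, had the highest density of this list, 0.499 in DMSO, 0.540 with leflunomide and 0.382 with A771726.

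Limma, run on the 3025 genes past the filter with all 6 libraries solved, called 0 gene bodies (0%), promoters (0%) or traveling ratios (0%) at an adjusted p of 0.05 in any comparison. At an unadjusted p under 0.05 there were 135 gene bodies with leflunomide, 626 with A771726 and 435 between the compounds. The corresponding promoters were 65, 100 and 68, and the traveling ratios 93, 167 and 99. In limma the ratio of a library was its promoter density over its gene body density, each plus its pseudocount. It was thus not the deposited ratio.

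The genes whose gene body changes with the 2 compounds were most like those of each cytokine gene, by distance on the log2 scale among genes of like density, were ZNF799, PMEL and VSIG8 for IL1A (nearest distance 0.10) and PCYOX1L, ZNF181 and UCP3 for IL1B (0.06). For CXCL2 they were C20orf46, MIR126 and ZNF668 (0.02), and for CXCL3 MIR4667, SNORD7 and GNB3 (0.29). The likeness rests on 2 changes per gene over 3 group means. For CXCL3 the next gene, SNORD7, lay at 0.72, whereas the third gene lay at 0.13 for IL1A, 0.11 for IL1B and 0.06 for CXCL2.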

How the data were processed

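GRO-seq was made from A375 cells in 3 groups of 2 libraries. Per the submitters' processing notes, reads were handled with Bowtie 0.12.9, build hg18 and bedtools. No source used here gives windows, scaling or row selection. The deposited densities of promoters and gene bodies are a signal in an unnamed unit, which the authors averaged over the 2 libraries of a group. The deposited traveling ratios, and their fold over DMSO, are the authors' means too. The headers write A771762, read here as A771726.

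Of 22442 rows, the row with the highest mean gene body density was kept per symbol. Genes past the 30th percentile of the mean stayed in (8706 by gene body, 8838 by promoter), and all 4 cytokine genes passed both, some only through the groups where they are high. Log2 changes are of group means plus a pseudocount of 0.0022 (gene body) or 0.01735 (promoter). Pooled columns carry no SD, n or test.

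Library values were solved on the 4-decimal grid from the mean promoter, gene body and ratio of a row, and 77.3% to 78.1% of promoter values fell on whole reads (0.12% to 0.452% after a shift). The library of a pair was set by these whole reads, and which of libraries 1 and 2 is replicate a or b of the labels is not known. Where 2 pairs solved a row, the pair with gene body reads nearest to whole numbers was drawn. Solving and limma 3.58.1 (trend, robust, 3 groups in 1 fit, R 4.3.3, Benjamini-Hochberg adjustment) were tested on simulated data. Other pseudocounts, filters and centring on the median gene were tried, and each library was left out in turn where it could be solved (all 6 for limma, but no DMSO library of IL1A, IL1B or CXCL3 and no A771726 library of IL1A). A planned comparison of protein sequences was not made.

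The genes and lists were chosen with earlier results of these data known. Named list genes are those at least 2-fold changed in any comparison, with CXCL1, NFKBIA, TNFAIP3, IL1R1, CXCR2 and IL1RN. IL37, IL1RAP, CXCL16, IL8, CXCR5, CXCR6, IER3, KRT14, SOX10, MLANA, ERBB3, PAX3, MITF and PMEL were added after values were seen. So were FOSL1, NGFR, AXL, EGFR, CD68, CSF1R, PTPRC and CD14.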

Additional observations from a re-analysis of the deposited data

How the results depend on the processing

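With 3 to 34 reads behind a gene body mean, depth limits every value here, and no pooled mean has an error of its own. No paired analysis was possible because the columns carry no replicate letters and the solved libraries match no letter. No alternative deposited row was tried, since each gene has 1 row. The read scale was chosen after seeing the data, as was the use of the other CXCL2 pair. The causes of the shifts below were not tested.

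Log2 gene body changes with a pseudocount 5 times larger were 0.56 and 0.36 for IL1A with leflunomide and A771726, −0.74 and −0.77 for IL1B, −0.72 for CXCL2 with A771726, and 0.84, −1.64 and −2.48 for CXCL3 with leflunomide, with A771726 and between the compounds. With one 5 times smaller they were 0.88 for IL1A, −1.52 for IL1B, and 1.00, −2.88 and −3.88 for CXCL3. Centred on the median gene they were 1.23 for IL1A and −0.61 for CXCL2 with A771726, and 1.03, −2.01 and −3.03 for CXCL3. Between the compounds centring turned the direction of IL1A (0.14) and IL1B (0.42). Centring also took IL1B with A771726 to −0.83, short of 2-fold. With the larger pseudocount the promoter change between the compounds was 0.84 for CXCL3 and 0.56 for CXCL2, and that of CXCL2 with A771726 was 0.74, all short of 2-fold. From quotients of mean densities, the CXCL2 ratio changed by 0.24 with leflunomide and 3.21 between the compounds.

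No DMSO library of IL1A, IL1B or CXCL3 and no A771726 library of IL1A could be left out, so the ranges of these genes miss that spread (the CXCL3 DMSO libraries sum to 0.0771, so 1 of them could lie near the leflunomide values). Leaving out 1 library gave gene body changes with leflunomide of −0.041 to 1.66 for IL1A, −1.47 to −1.13 for IL1B, −1.88 to 1.32 for CXCL2 and 0.96 to 0.99 for CXCL3. With A771726 they were −3.10 to −0.58 for IL1B, −1.40 to −0.80 for CXCL2 and −2.76 to −2.33 for CXCL3. Between the compounds they were −0.95 to 0.75 for IL1A, −1.81 to 0.71 for IL1B, −2.45 to 0.75 for CXCL2 and −3.74 to −3.30 for CXCL3. Promoter changes of CXCL2 were −1.18 to 1.64 with leflunomide, 0.88 to 2.70 with A771726 and 0.31 to 2.70 between the compounds, where IL1B had −1.0 to 1.25 and CXCL3 0.94 to 1.597. CXCL3 kept the direction of each of these changes under the alternatives run, which leave out no DMSO library.

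Genes at least 2-fold changed in gene body density with leflunomide numbered 106 higher and 239 lower under a stricter filter, 51 and 186 with the larger pseudocount, and 613 lower with no filter. With A771726 there were 30 higher and 816 lower with the larger pseudocount, and 313 and 499 after centring. Between the compounds there were 140 higher with no filter, 47 with the stricter filter, 30 higher and 395 lower with the larger pseudocount, and 294 and 328 after centring. At promoters the stricter filter gave 1667 higher and 819 lower with leflunomide, 1509 lower with A771726, and 741 higher and 1739 lower between the compounds. The larger pseudocount gave 614 and 270, 454 and 593, and 237 and 679. Without 1 library, limma called 0 to 1 gene bodies with leflunomide and 0 to 24 with A771726, 0 to 21, 0 to 13 and 0 to 4 promoters in the 3 comparisons, and 0 to 4 and 0 to 28 ratios with the compounds. A group left with 1 library was assumed to vary like the others.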
